A study of Mus musculus with 9 samples.

Results

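The AP-1 transcription factors of mouse squamous cell carcinoma (SCC) cells were examined gene by gene in 3 cell lines that differ in focal adhesion kinase (FAK). The 10 genes followed were *Jun*, *Junb* and *Jund* (Jun type), *Fos*, *Fosb*, *Fosl1* and *Fosl2* (Fos type), and *Atf2*, *Atf3* and *Atf7* (Atf type). They were chosen by name as family members, and all 10 had a row among the 19044 genes of the count table. The SCC cells came from K14CreER FAK flox/flox mice of the FVB strain after chemical skin carcinogenesis with DMBA and TPA, and FAK was deleted in culture with 4-hydroxytamoxifen. FAK-/- cells are a clone of these cells. FAK-WT-expressing cells are FAK-/- cells to which wild-type FAK was returned with a retrovirus, and FAK-kd-expressing cells received a kinase-deficient FAK in the same way. All 3 lines therefore carry the same *Ptk2* deletion, the same tumour history and the background of 1 clone. Selection with hygromycin is described only for the cells that received a construct. Where FAK-/- cells differ from both other lines, returned FAK cannot be told apart from the retrovirus or the selection. The age of the animals is not given in the sources used here. Each line had 3 libraries of bulk RNA-seq, which the labels number as replicates. The study calls them biological replicates, and as the labels do not say whether they were separate cultures, the p-values measure the spread between these libraries. The study asked which transcription factors could link FAK to gene expression, and the comparison of lines addresses whether transcripts of AP-1 factors themselves follow FAK or its kinase activity.

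AP-1 is not 1 protein but a family of dimers. Each member has a basic region that contacts DNA and a leucine zipper through which 2 members pair. Jun proteins pair with themselves and with Fos and Atf proteins, whereas Fos proteins do not form stable pairs with themselves and need a Jun partner. Jun-Fos pairs prefer the site TGACTCA (the TRE), and pairs that hold an Atf protein prefer the longer TGACGTCA (the CRE). In skin, AP-1 is known for its part in the response to TPA, in wound healing and in the growth of squamous tumours. *Fos*, *Fosb*, *Jun* and *Junb* are immediate-early genes, which respond within minutes to growth factors and adhesion. *Jund* and *Atf2* are usually present at steady levels, and their proteins are switched on by phosphorylation. None of that regulation of proteins is seen in RNA counts.

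The sequences below show the DNA that the family reads, first at its own gene *Jun* and then at *Il33*, the cytokine gene followed by the study. *Jun* is printed because its promoter is the best known case of AP-1 sites in an AP-1 gene. TGACTCA and TGACGTCA were searched on both strands and matched in none of the 9 member promoters, *Jun* included. Only exact letters were searched, so near matches were not counted. The window for *Jund* was chr8:70697489-70697738, which does not adjoin the start of *Jund* given below (base 70698949). The variants TGACATCA and TTACCTCA were searched because they are known from the *Jun* promoter, so that they matched there and in no other member promoter is no finding. *Fosl1* had no promoter entry in the RefSeq table. The stretch covers the 250 bases before the start of *Jun* on the minus strand, chr4:95052223-95052472 of GRCm38.p6, and capitals mark the matches. TTACCTCA began 164 bases and TGACATCA 45 bases before the start.

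Jun promoter: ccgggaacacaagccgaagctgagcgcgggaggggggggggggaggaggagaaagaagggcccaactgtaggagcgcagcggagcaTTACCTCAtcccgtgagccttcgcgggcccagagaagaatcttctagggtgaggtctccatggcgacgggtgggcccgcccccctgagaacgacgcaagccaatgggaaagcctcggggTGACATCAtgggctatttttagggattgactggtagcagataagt

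Of 32851 RefSeq promoter windows of this length, 0.728% held TTACCTCA, 2.93% TGACATCA, 4.46% TGACTCA and 1.55% TGACGTCA. A match is a description of letters and does not show binding. At *Il33* (GRCm38 chromosome 19, bases 29925114 to 29960718, plus strand), the study's motif scan of accessible chromatin at the enhancer listed the following matches, with the core in capitals. They are shown because *Jun*, *Atf2* and *Atf7* are 3 of the 10 genes. The scan listed the first site for Jun and the second, a CRE, for Atf2 and Atf7. The study took the CRE as a site for c-Jun paired with an Atf protein as well. By ChIP-qPCR it found c-Jun bound at the enhancer region with the CRE in FAK-WT-expressing cells, and significantly less in FAK-kd-expressing cells. It also reported lower *Il33* mRNA and IL-33 protein after siRNA against *Jun*. The names below are those of the scan and do not assign a site to 1 factor.

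TRE listed for Jun: gtcTGACTCAtt
CRE listed for Atf2 and Atf7: tccTGACGTCAg

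The libraries of FAK-WT-expressing cells held 779755, 37264636 and 34542711 counts, and the other 6 held between 25304994 and 34388720. FAK-WT replicate 1 thus had 2.31% of the median of the other libraries, and a count of 3 in it corresponds to 3.78 CPM (counts scaled to library size with edgeR's TMM factors). Limits set from such counts cover counting error only. *Ptk2*, which encodes FAK, was at 213 to 216 CPM in FAK-WT, 19.6 to 23.5 CPM in FAK-/- and 155 to 176 CPM in FAK-kd libraries, so FAK-/- libraries were low, as labelled. *Ptk2* was also lower in FAK-kd- than in FAK-WT-expressing cells (log2 fold change of FAK-WT over FAK-kd 0.40, standard error 0.08, edgeR adjusted p = 0.00163), and the part of this level in differences between these lines was not tested. Of 16 keratinocyte markers, 12 had a row. The basal and simple keratins *Krt5*, *Krt14* and *Krt18* and the cadherin *Cdh1* were at most 0.24 CPM in every library, *Krt8* was at 0.158 to 1.38 CPM, and *Krt15* averaged 0.175 CPM in FAK-WT, 1.67 CPM in FAK-/- and 1.93 CPM in FAK-kd libraries. By edgeR's adjusted p *Krt15* was lower in FAK-WT-expressing cells than in both other lines (6.5e-05 and 3.1e-05), and *Krt8* was higher in FAK-kd-expressing than in FAK-/- cells (0.00548). The integrins *Itga6* and *Itgb4*, also keratinocyte markers, were at 54.1 to 297 CPM. Summed keratinocyte markers were 229 to 244 CPM in FAK-WT, 366 to 387 in FAK-/- and 350 to 357 in FAK-kd libraries. Summed fibroblast markers (11 of 12 with a row) were 2318 to 2448, 2039 to 2198 and 2135 to 2880 CPM, mostly from the collagens *Col3a1* and *Col6a3*. Within that list *Acta2* was at 0 to 1.49 CPM in FAK-WT, 72.2 to 78.7 in FAK-/- and 100.3 to 117.9 in FAK-kd libraries. *Pdgfra* and *Pdgfrb* were also lower in FAK-WT-expressing cells than in both other lines (log2 fold changes of -1.44 and -1.11, and of -2.04 and -2.40). *Col6a3* (0.41, edgeR adjusted p = 0.0101) and *Dcn* (2.24, adjusted p = 0.0426) went the other way for FAK-WT over FAK-/- cells. *Dcn* averaged 0.294 CPM in FAK-WT libraries, and no marker of the list passed as higher for FAK-WT over FAK-kd cells. The part of these markers in the results below was not tested. Nearly all of the keratinocyte marker signal came from integrins and little from keratins. Leukocyte markers (6 of 10 with a row) summed to at most 3.39 CPM and endothelial markers (5 of 6) to at most 2.08 CPM in any library. In bulk RNA, fewer cells that express a gene and less RNA per cell cannot be told apart.

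On a scale that allows genes to be compared, *Fosl1* and *Jun* led the family. Levels were set per length as TPM, in which each gene's count is divided by the median length of its protein-coding transcripts and scaled to the same total in every library. The mean over 9 libraries was 283 TPM for *Fosl1* and 165 TPM for *Jun*, above 96.8% and 94.3% of the 18856 genes with a length. *Atf7* followed at 120 TPM, *Jund* at 63.6 TPM, *Fosl2* at 47.9 TPM, *Atf2* at 27.8 TPM and *Junb* at 23.5 TPM. *Fosb* (3.95 TPM), *Atf3* (2.38 TPM) and *Fos* (0.288 TPM) were scarcely expressed.

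This ranking depended on the length used. *Fosl1* has 2 coding transcripts of 357 and 1864 bases, and *Atf7* has 9 of 390 to 7147 bases. With the longest coding transcript of each gene, *Fosl1* (258 TPM) and *Jun* (252 TPM) were nearly level, and *Atf7* dropped to 37.4 TPM, between *Atf2* (39.8 TPM) and *Junb* (35.9 TPM). With the union of all exons *Jun* led at 352 TPM and *Fosl1* followed at 330 TPM, and *Junb* (39.5 TPM) lay above *Atf7* (34.0 TPM) and *Atf2* (28.7 TPM). *Jun* and *Fosl1* were the highest and *Fosb*, *Atf3* and *Fos* the lowest under all 3 lengths.

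Among transcripts of the Jun type, *Jun* made up 64.6% ± 1.18 (SD, n = 3) in FAK-WT-expressing, 66.0% ± 2.26 in FAK-/- and 65.8% ± 0.99 in FAK-kd-expressing cells. *Jund* made up 23.3% to 27.9% and *Junb* 7.62% to 11.8% over the 9 libraries. The share of *Junb* was 10.8% to 11.8% in FAK-WT, 8.32% to 8.72% in FAK-/- and 7.62% to 9.82% in FAK-kd libraries. FAK-WT libraries overlapped with neither other line, which was not tested. The lowest FAK-WT share was that of the shallow replicate 1, with 22 counts of *Junb*. Among transcripts of the Fos type, *Fosl1* alone made up 81.8% to 86.5% and *Fosl2* 12.6% to 16.3%, while *Fos* and *Fosb* together made up at most 1.96% in any library. With the longest transcripts the share of *Fosl1* was 73.0% to 79.2%. By transcript, the most abundant Jun type gene was thus *Jun* and the most abundant Fos type gene *Fosl1* in all 3 lines. Which partner came next for c-Jun depended on the length, since *Atf7* was above *Jund* and *Fosl2* with the median length and below both with the other lengths. Transcripts are not proteins, and dimers were not measured.

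The Jun type and the Fos type were of similar size. The Jun type held 40.6% ± 1.08 (SD, n = 3) of Jun plus Fos transcripts in FAK-WT-expressing, 45.6% ± 2.10 in FAK-/- and 41.5% ± 3.31 in FAK-kd-expressing cells. The lowest FAK-/- library (44.1%) lay above the highest FAK-WT (41.4%) and FAK-kd (43.7%) library, although with the longest transcripts the FAK-/- and FAK-kd libraries overlapped. No test was made on this share, as it is a score over chosen genes. With the longest transcripts the shares were 50.9%, 55.8% and 52.0%, and with the union of exons 54.1%, 59.2% and 55.2%, so which type is larger depended on the length while the order of the group means did not. On the first scale, the 10 genes summed to 640 ± 19.5 TPM in FAK-WT, 810 ± 116 TPM in FAK-/- and 759 ± 20.9 TPM in FAK-kd libraries.

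**Figure D1:**
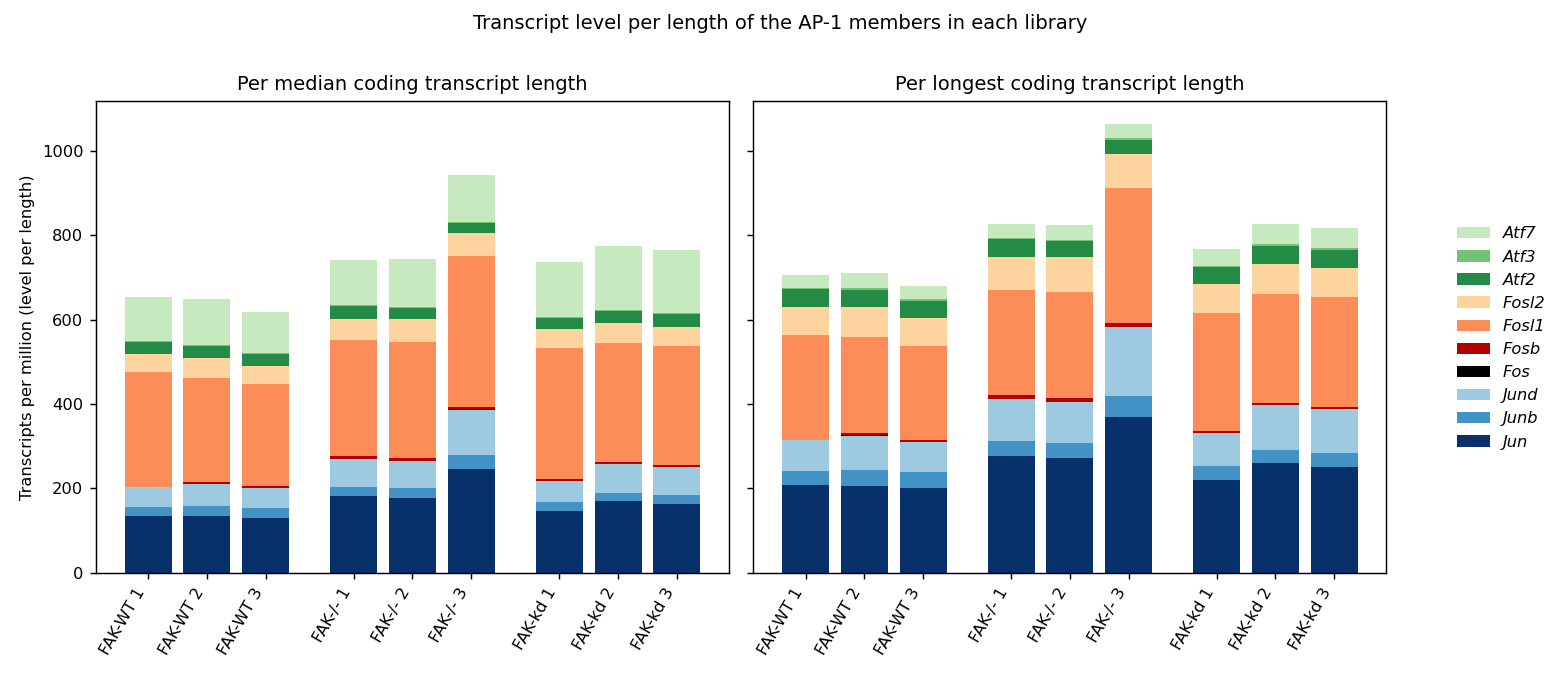
Level per length (TPM) of the 10 AP-1 members, stacked for each of the 9 libraries, with the count divided by the median (left) or the longest (right) coding transcript length. *Jun* (dark blue) and *Fosl1* (orange) fill most of every bar, *Fos* is too low to see, and the FAK-/- replicate 3 bar is the tallest, at 944 TPM on the left.

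Counts were compared between the lines with edgeR's quasi-likelihood test in 1 fit of all 9 libraries, with p-values adjusted over all genes. *Jun*, *Jund*, *Fosb* and *Fosl2* were lower in FAK-WT-expressing than in FAK-/- cells and *Atf7* was lower in them than in FAK-kd-expressing cells, each by under 2-fold. In this fit no member passed as lower in FAK-WT-expressing cells against both other lines. *Jun* and *Jund* did so without FAK-/- replicate 3, with a trend with GC content removed, and with only the 2 groups of a comparison fitted. No member reached the criterion of an adjusted p of at most 0.05 and at least a 2-fold change, which 5.38% of all genes reached for FAK-WT over FAK-/-, 5.26% for FAK-WT over FAK-kd and 2.01% for FAK-kd over FAK-/-. DESeq2 also placed no member past it, and at an unadjusted p under 0.05 with no fold minimum edgeR counted 5, 3 and 6 members. By adjusted p alone, 4 of 10 members (*Jun*, *Jund*, *Fosb*, *Fosl2*) fell in FAK-WT-expressing relative to FAK-/- cells, and the other 6 did not pass. Of all genes, 18% passed, 9.96% lower and 8.01% higher. Relative to FAK-kd-expressing cells 1 member fell (*Atf7*), while 17.7% of all genes passed, 10.2% lower and 7.58% higher. FAK-kd-expressing relative to FAK-/- cells had 2 lower members (*Fosb*, *Fosl2*) and 1 higher (*Atf7*), while 7.84% of all genes passed, 3.88% lower and 3.97% higher. The 3 comparisons share their libraries and are not independent of each other.

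All 10 members passed edgeR's filterByExpr, which keeps 12235 genes, and among those genes the shares passing were 29.3%, 29% and 13.3%. The members' counts of 4, 1 and 3 lie within 2 genes of what these shares give for 10 genes, and nothing about the family is read from them. Over the members the median log2 fold change was -0.24, -0.07 and -0.29 in the 3 comparisons, and over all genes it was 0 in each. All libraries of one line lay apart from those of the other in 6, 4 and 5 members, beside 42.5%, 47.7% and 35.3% of the 12235 genes.

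These calls rested in part on 2 libraries. FAK-WT replicate 1 is shallow, and FAK-/- replicate 3 stands above its 2 companions for several members. Without both, the fit found 5 members lower (*Jun*, *Jund*, *Fosb*, *Fosl1*, *Fosl2*) and 1 higher (*Atf3*) for FAK-WT over FAK-/-, 4 lower (*Jun*, *Jund*, *Fosl1*, *Atf7*) and 1 higher (*Junb*) for FAK-WT over FAK-kd, and 3 lower (*Jun*, *Fosb*, *Fosl2*) and 1 higher (*Atf7*) for FAK-kd over FAK-/-. The shares of all genes in that fit were 25.4%, 30.2% and 14.6%. FAK-kd replicate 1 also stood apart from the other FAK-kd libraries. It was at 62.2 CPM for *Jund*, beside 80.6 and 78.9 CPM, and at 253 CPM for *Fosl1*, beside 220 and 220 CPM. With only that library left out, the same members passed as with all 9 libraries.

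**Figure D2:**
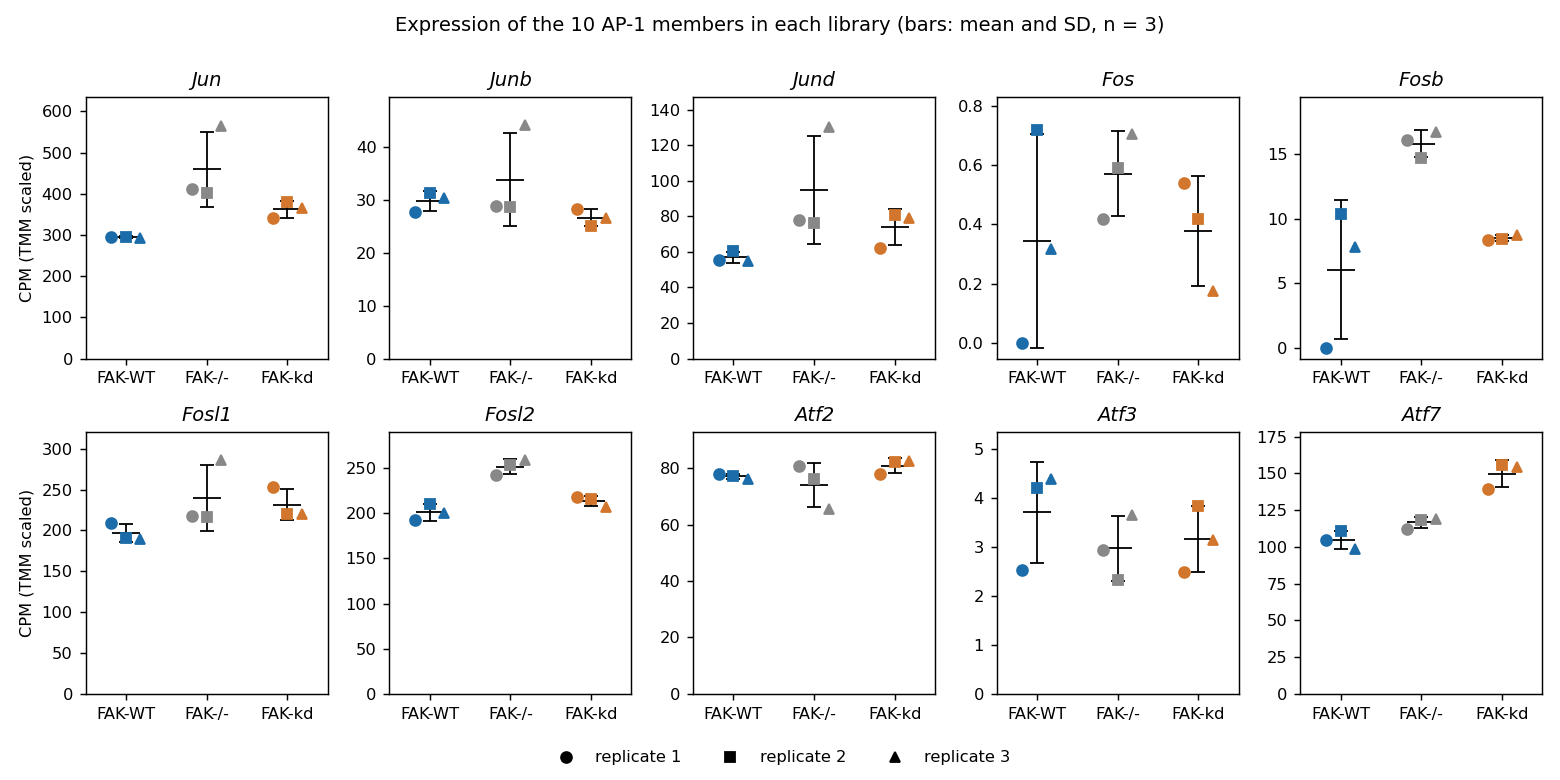
CPM (TMM scaled) of each member in the 9 libraries, with 1 panel for each gene and its own axis, points for libraries and bars for the mean and SD of 3 libraries. *Jun* and *Jund* are lowest in FAK-WT and highest in FAK-/- replicate 3, *Fosb* is highest in FAK-/-, and *Atf7* is highest in FAK-kd-expressing cells.

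**Figure D3:**
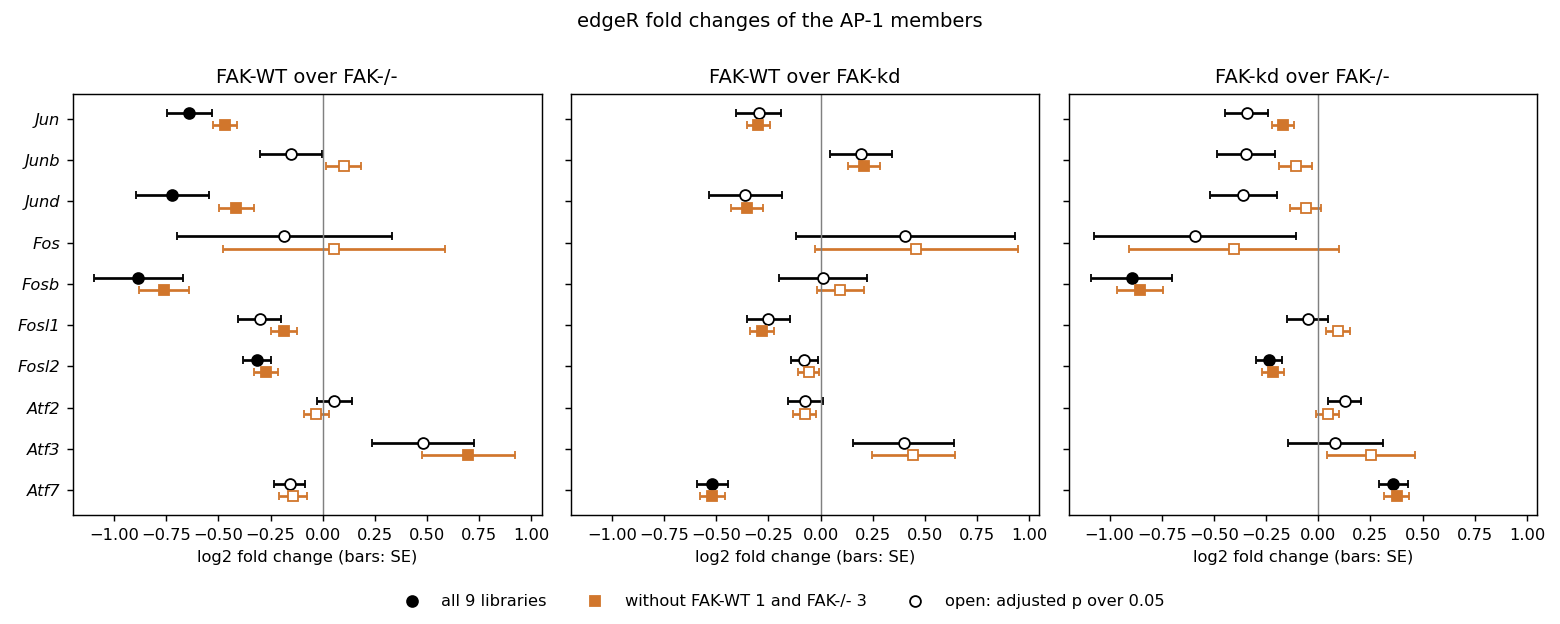
edgeR log2 fold changes with standard errors for the 10 members in the 3 comparisons, with all 9 libraries (black) and without FAK-WT replicate 1 and FAK-/- replicate 3 (orange), and filled symbols where the adjusted p is at most 0.05. For *Jun* the change of FAK-WT over FAK-/- cells moves from -0.64 to -0.47, and for *Atf7* over FAK-kd cells it is -0.52 both times.

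*Jun* encodes c-Jun, the strongest activator of the Jun type and a substrate of the JNK kinases (chromosome 4, bases 95049034 to 95052222, minus strand, a single exon, ENSMUSG00000052684). It was at 296, 296 and 293 CPM in FAK-WT, 413, 402 and 564 CPM in FAK-/- and 340, 381 and 365 CPM in FAK-kd libraries. The order was FAK-WT, FAK-kd and FAK-/-, with no overlap between any 2 lines (exact permutation test, 2-sided, p = 0.1 for each pair, the smallest that 3 libraries against 3 allow). *Jun* fell in FAK-WT-expressing relative to FAK-/- cells by a log2 fold change of -0.64 (standard error 0.11, edgeR adjusted p = 0.000554), that is to 0.642 of the level. Its other changes were -0.30 (standard error 0.11, adjusted p = 0.0731) for FAK-WT over FAK-kd and -0.34 (standard error 0.10, adjusted p = 0.0572) for FAK-kd over FAK-/- cells, neither passing. Without FAK-/- replicate 3 the estimates were -0.47, -0.30 and -0.17, and all 3 passed (edgeR adjusted p = 1.8e-06, 0.000105 and 0.0407). The last also passed without FAK-/- replicate 1 or 2 (adjusted p = 0.0266 and 0.0159). The count of *Jun* is little shared with other genes, as 6.39% of its 31-base words occur in an antisense gene, Junos. The study blotted c-Jun protein in FAK-WT-expressing cells and reported less total and phosphorylated c-Jun after a FAK kinase inhibitor. That direction is opposite to the order of *Jun* RNA given here. It concerns protein after a drug rather than RNA compared between lines, and the relation of the measures was not tested.

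*Junb* encodes a Jun protein that activates less than c-Jun and can oppose it (chromosome 8, bases 84974484 to 84978718, minus strand, ENSMUSG00000052837). It was at 27.7, 31.4 and 30.3 CPM in FAK-WT, 28.9, 28.6 and 44.1 CPM in FAK-/- and 28.4, 25.0 and 26.6 CPM in FAK-kd libraries. Apart from FAK-/- replicate 3 the libraries of the 3 lines lay close together, and all FAK-kd libraries were just below those of FAK-/-. No comparison passed, with log2 fold changes of -0.15, 0.19 and -0.35 (edgeR adjusted p = 0.545, 0.454 and 0.165). The first of these turned to 0.09 without FAK-/- replicate 3, so *Junb* did not share the pattern of *Jun* in these values, although a difference between the 2 genes was not tested.

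*Jund* encodes the Jun protein that is typically present in resting cells (chromosome 8, bases 70698949 to 70700616, plus strand, a single exon, ENSMUSG00000071076). It was at 55.4, 60.6 and 55.1 CPM in FAK-WT, 78.1, 76.1 and 130 CPM in FAK-/- and 62.2, 80.6 and 78.9 CPM in FAK-kd libraries. FAK-WT libraries lay below all others, and FAK-/- and FAK-kd libraries overlapped. *Jund* fell in FAK-WT-expressing relative to FAK-/- cells by -0.72 on the log2 scale (standard error 0.18, edgeR adjusted p = 0.0091), and by -0.42 (standard error 0.09, adjusted p = 0.0014) without FAK-/- replicate 3. Without FAK-WT replicate 3 the adjusted p was 0.0522. Its change for FAK-WT over FAK-kd was -0.36 (adjusted p = 0.191), and -0.36 (adjusted p = 0.00193) without FAK-/- replicate 3. For FAK-kd over FAK-/- cells it was -0.36 (adjusted p = 0.224), and only -0.06 (adjusted p = 0.716) without that library. An antisense gene, Gm11175, holds 50.1% of the 31-base words of *Jund*. The library kit named in the labels does not mark strand, so reads of the 2 genes cannot be told apart.

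*Fos* encodes c-Fos, the founding Fos protein (chromosome 12, bases 85473890 to 85477273, plus strand, ENSMUSG00000021250). Its raw counts were 0, 27 and 11 in FAK-WT, 14, 15 and 22 in FAK-/- and 18, 14 and 6 in FAK-kd libraries, under 1 CPM throughout. The 0 was in FAK-WT replicate 1, where a count of 0 allows a level of up to 3.78 CPM. No comparison passed (edgeR adjusted p = 0.878, 0.651 and 0.547), and with a standard error of at least 0.48 on the log2 scale a moderate difference was not detectable at this depth.

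*Fosb* encodes a Fos protein with a transactivation domain like that of c-Fos (chromosome 7, bases 19302696 to 19310051, minus strand, ENSMUSG00000003545). It was at 0, 10.4 and 7.79 CPM in FAK-WT, 16.1, 14.7 and 16.7 CPM in FAK-/- and 8.30, 8.45 and 8.75 CPM in FAK-kd libraries. FAK-/- libraries were above all others, and those of FAK-WT and FAK-kd overlapped. *Fosb* fell in FAK-WT-expressing relative to FAK-/- cells by -0.88 (standard error 0.21, edgeR adjusted p = 0.00821) and in FAK-kd-expressing relative to FAK-/- cells by -0.89 (standard error 0.19, adjusted p = 0.00941), which were the largest changes of any member. Without the shallow library they were -0.80 (adjusted p = 0.000526) and -0.89 (adjusted p = 0.000167). The first missed the threshold without FAK-WT replicate 3 (adjusted p = 0.0786), and the second without FAK-kd replicate 2 or 3 (adjusted p = 0.0548 and 0.0656). FAK-WT- and FAK-kd-expressing cells differed by 0.01 (standard error 0.21, adjusted p = 1), an estimate too wide to show that they were alike.

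*Fosl1* encodes Fra-1, a Fos protein without a strong transactivation domain that is often high in invasive tumour cells (chromosome 19, bases 5447547 to 5455946, plus strand, ENSMUSG00000024912). It was at 209, 191 and 190 CPM in FAK-WT, 217, 216 and 286 CPM in FAK-/- and 253, 220 and 220 CPM in FAK-kd libraries. FAK-WT libraries were the lowest, with no overlap with either other line. The log2 fold changes did not pass, at -0.30 (standard error 0.10, edgeR adjusted p = 0.0587) relative to FAK-/- cells and -0.25 relative to FAK-kd cells (standard error 0.10, adjusted p = 0.123). Without FAK-/- replicate 3 the second passed at -0.26 (adjusted p = 0.00157) and the first was -0.17 (adjusted p = 0.0699). The first passed without FAK-/- replicate 1 or 2 (adjusted p = 0.0327 and 0.0278) and with DESeq2 (adjusted p = 0.0428). FAK-kd over FAK-/- cells gave -0.05 (adjusted p = 0.83), which turned to 0.10 (adjusted p = 0.402) without that library. *Ccdc85b*, a coding gene on the opposite strand, holds 54.5% of the 31-base words of *Fosl1*, so its count is uncertain. *Ccdc85b* was at 56.6 to 70.7 CPM in FAK-WT, 90.2 to 154 CPM in FAK-/- and 89.5 to 93.5 CPM in FAK-kd libraries, and its part in the count of *Fosl1* was not tested.

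*Fosl2* encodes Fra-2, the other Fos protein of this kind, with a long transcript of 6537 bases (chromosome 5, bases 32135801 to 32157842, plus strand, ENSMUSG00000029135). It was at 193, 210 and 200 CPM in FAK-WT, 242, 254 and 259 CPM in FAK-/- and 218, 216 and 207 CPM in FAK-kd libraries. FAK-/- libraries were the highest, and the other lines overlapped. *Fosl2* fell by -0.31 (standard error 0.07, edgeR adjusted p = 0.0031) in FAK-WT-expressing and by -0.24 (standard error 0.06, adjusted p = 0.0306) in FAK-kd-expressing relative to FAK-/- cells. The first passed with each library left out in turn. The second passed in 4 of these 9 fits and missed the threshold without FAK-WT replicate 2 or 3, FAK-/- replicate 2, or FAK-kd replicate 2 or 3 (adjusted p = 0.0537 to 0.149). FAK-WT over FAK-kd cells gave -0.08 (standard error 0.07, adjusted p = 0.474).

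*Atf2* encodes a factor that pairs with c-Jun and is switched on by JNK and p38 kinases (chromosome 2, bases 73816509 to 73892639, minus strand, ENSMUSG00000027104). It was at 78.1, 77.3 and 76.3 CPM in FAK-WT, 80.8, 76.0 and 65.6 CPM in FAK-/- and 78.0, 82.3 and 82.5 CPM in FAK-kd libraries. The lines overlapped except that FAK-/- replicate 3 was the lowest library, the opposite of its place for the Jun genes. No comparison passed, with log2 fold changes of 0.05, -0.07 and 0.13 (standard errors 0.08, edgeR adjusted p = 0.712, 0.603 and 0.402).

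*Atf7* encodes the close relative of Atf2 (chromosome 15, bases 102525946 to 102625464, minus strand, ENSMUSG00000099083). It was at 104, 111 and 98.5 CPM in FAK-WT, 113, 119 and 119 CPM in FAK-/- and 139, 156 and 154 CPM in FAK-kd libraries. The order FAK-WT, FAK-/- and FAK-kd had no overlap between lines and differed from that of *Jun*. *Atf7* fell in FAK-WT-expressing relative to FAK-kd-expressing cells by -0.52 (standard error 0.07, edgeR adjusted p = 0.000132) and rose in FAK-kd-expressing relative to FAK-/- cells by 0.36 (standard error 0.07, adjusted p = 0.00454). Both passed with each library left out in turn. FAK-WT over FAK-/- cells gave -0.16 (standard error 0.07, adjusted p = 0.175). Of the 31-base words of *Atf7*, 12.8% occur in other genes, among them Gm28047 on the same strand, which was at 0 in 8 of the 9 libraries.

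*Atf3* encodes a stress-induced factor that represses as a pair with itself (chromosome 1, bases 191170296 to 191218039, minus strand, ENSMUSG00000026628). It was at 2.52, 4.20 and 4.38 CPM in FAK-WT, 2.94, 2.33 and 3.65 CPM in FAK-/- and 2.49, 3.83 and 3.13 CPM in FAK-kd libraries. All lines overlapped, and the count in FAK-WT replicate 1 was 2, under the floor of 3. Its log2 fold changes of 0.48, 0.40 and 0.08 did not pass (edgeR adjusted p = 0.213, 0.316 and 0.902). Without FAK-WT replicate 1 and FAK-/- replicate 3 the first was 0.70 (adjusted p = 0.0198).

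FAK-/- replicate 3 was the highest of all 9 libraries for *Jun*, *Junb*, *Jund*, *Fosb*, *Fosl1* and *Fosl2*. It exceeded its 2 companions by 1.69-fold for *Jund*, 1.53-fold for *Junb*, 1.39-fold for *Jun* and 1.32-fold for *Fosl1*, and was at 0.837 of them for *Atf2*. The transcripts of *Jund*, *Junb* and *Fosl1* had a GC content of 67.1%, 62.6% and 62.2%, and those of *Atf2* 40.5%. Across 11790 genes with a mean count of at least 10, the deviation of this library from its companions correlated with GC content (Spearman's rho 0.67), whereas rho was -0.05 to 0.12 for the libraries of the other lines. Genes are not independent replicates. With a GC trend removed from each library, *Jun*, *Jund*, *Fosb* and *Fosl2* still passed for FAK-WT over FAK-/- cells, at -0.55, -0.31, -0.79 and -0.27 on the log2 scale (edgeR adjusted p = 9e-05, 0.00933, 0.00681 and 0.00114). *Fosl1* went to -0.05 in the same fit (adjusted p = 0.662). For FAK-WT over FAK-kd cells *Jun*, *Jund* and *Atf7* then passed as lower and *Junb* as higher. For FAK-kd over FAK-/- cells *Jun*, *Fosb* and *Fosl2* passed as lower and *Atf7* as higher. Of all genes, 22.5% passed for FAK-WT over FAK-/-, 23.9% for FAK-WT over FAK-kd and 11.7% for FAK-kd over FAK-/- cells in this fit.

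**Figure D4:**
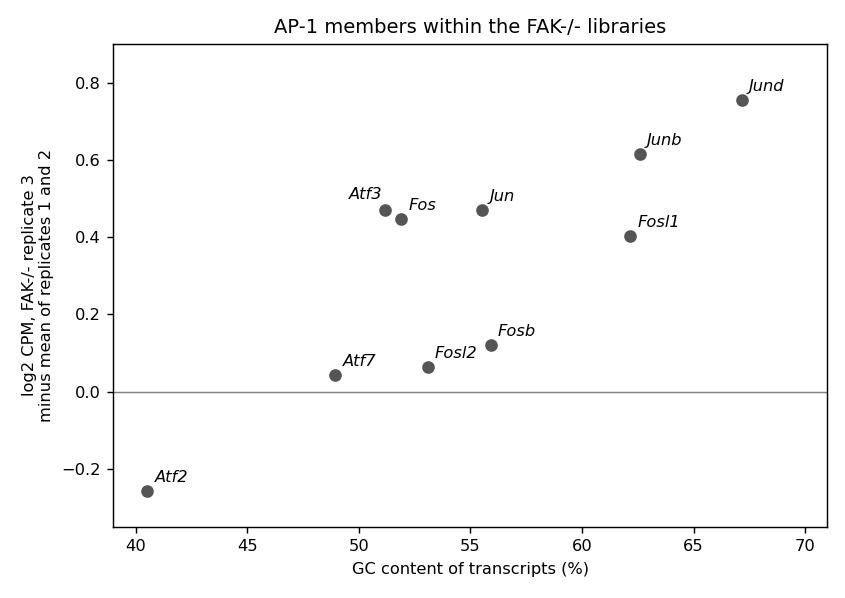
Difference in log2 CPM between FAK-/- replicate 3 and the mean of FAK-/- replicates 1 and 2 (vertical axis) against the GC content of each member's transcripts in percent (horizontal axis), with 1 point for each of the 10 genes. *Jund*, with the highest GC content, has the largest difference (0.75) and *Atf2*, with the lowest, the only negative one (-0.26).

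Genes that work with AP-1 were described from 4 lists, whose counts stand beside 18%, 17.7% and 7.84% of all genes passing (29.3%, 29% and 13.3% of those kept by filterByExpr) for FAK-WT over FAK-/-, FAK-WT over FAK-kd and FAK-kd over FAK-/- cells. Of 29 other bZIP factors, which can pair with or compete with AP-1 proteins, 2 rose and 2 fell for FAK-WT over FAK-/-, 5 rose and 6 fell for FAK-WT over FAK-kd, and 2 rose and 5 fell for FAK-kd over FAK-/- cells by edgeR's adjusted p, which is 13.8%, 37.9% and 24.1% in the 3 comparisons. *Maf*, which encodes a large Maf factor that can pair with Jun and Fos, was at 10.1, 6.17 and 5.62 CPM in FAK-WT, 27.6, 27.8 and 28.9 CPM in FAK-/- and 20.8, 23.4 and 21.8 CPM in FAK-kd libraries. It fell in FAK-WT-expressing cells by -2.21 (standard error 0.12, adjusted p = 5.5e-09) relative to FAK-/- and by -1.86 (standard error 0.12, adjusted p = 3.5e-08) relative to FAK-kd cells, more than any of the 10 members.

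Of 33 kinases and regulators of AP-1, 3 rose and 9 fell for FAK-WT over FAK-/- cells, 2 rose and 5 fell for FAK-WT over FAK-kd cells, and 4 passed for FAK-kd over FAK-/- cells, each of them lower. Those are 36.4%, 21.2% and 12.1% of the list. *Mapk8ip1*, which encodes a JNK scaffold, was at 18.9, 13.3 and 12.5 CPM in FAK-WT, 9.77, 9.46 and 11.8 CPM in FAK-/- and 3.96, 4.43 and 5.33 CPM in FAK-kd libraries. The lines did not overlap, and FAK-kd was the lowest. It rose by 1.55 (standard error 0.16, edgeR adjusted p = 5.3e-06) in FAK-WT- relative to FAK-kd-expressing cells and fell by -1.18 (standard error 0.15, adjusted p = 0.000132) in FAK-kd-expressing relative to FAK-/- cells. Of the JNK genes, which were named after their values were seen because JNK phosphorylates c-Jun, *Mapk8* rose by 0.41 (adjusted p = 0.0253) for FAK-WT over FAK-/- cells, *Mapk9* gave 0.14 (adjusted p = 0.312), and *Mapk10* was under 1 CPM in every library.

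Of 25 immediate-early genes, 2 rose and 9 fell for FAK-WT over FAK-/-, 3 rose and 7 fell for FAK-WT over FAK-kd, and 2 rose and 1 fell for FAK-kd over FAK-/- cells. The genes passing made up 44%, 40% and 12% of the list, beside 9.96% of all genes lower and 8.01% higher in the first comparison and 10.2% and 7.58% in the second. These genes had median log2 fold changes of -0.32, -0.20 and -0.10, beside 0 over all genes. *Nr4a2*, an orphan nuclear receptor gene, fell by -1.19 (standard error 0.22, edgeR adjusted p = 0.00124) and *Btg2*, an antiproliferative gene, rose by 1.06 (standard error 0.20, adjusted p = 0.00135) in FAK-WT-expressing relative to FAK-/- cells. In the shallow FAK-WT replicate 1, *Nr4a2* was at 2.52 CPM, under the 3.78 CPM of a count of 3, and *Btg2* was at 10.1 CPM. *Arc* rose by 1.01 (standard error 0.26, adjusted p = 0.0247) in FAK-kd-expressing relative to FAK-/- cells. *Maff* and *Srf* each stand in 2 of the 4 lists.

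Of 40 genes described as AP-1 targets, 37 had a row. For FAK-WT over FAK-/- cells 11 rose and 12 fell, for FAK-WT over FAK-kd cells 11 rose and 6 fell, and for FAK-kd over FAK-/- cells 7 passed edgeR's adjusted p, each of them lower. Those are 62.2%, 45.9% and 18.9% of the 37, beside the shares of all genes above, and in either comparison of FAK-WT-expressing cells some passed in each direction, as among all genes. *Il33*, which carries the sites printed above, was at 138, 141 and 145 CPM in FAK-WT, 67.0, 62.7 and 46.3 CPM in FAK-/- and 21.6, 37.7 and 37.4 CPM in FAK-kd libraries. It rose by 1.28 (standard error 0.17, edgeR adjusted p = 8.8e-05) in FAK-WT-expressing relative to FAK-/- cells and by 2.14 (standard error 0.18, adjusted p = 6.2e-07) relative to FAK-kd cells. Its rising order, FAK-kd, FAK-/- and FAK-WT, was the reverse of that of *Atf7*, and a relation between the 2 genes was not tested. *Ccl2*, a chemokine gene, rose by 2.21 (standard error 0.26, adjusted p = 1.6e-05) in FAK-WT-expressing relative to FAK-/- cells and by 2.03 (standard error 0.25, adjusted p = 3.3e-05) relative to FAK-kd cells. *Il33* is the gene the study followed in these lines, and the list was drawn up with earlier results of these libraries known.

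The 3 genes whose log2 CPM over the 9 libraries was most like that of *Jun*, of 8082 with at least 10 counts in every library, were *Gpsm1* (Pearson's r 0.99), ENSMUSG00000095742 (r 0.99), for which no symbol was found, and *Sap30l* (r 0.99). All 3 were, like *Jun*, lowest in FAK-WT and highest in FAK-/- replicate 3. *Gpsm1* was at 17.3 to 17.6 CPM in FAK-WT, 21.4 to 28.7 CPM in FAK-/- and 18.8 to 20.6 CPM in FAK-kd libraries. These 9 points share the library that follows GC content.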

How the data were processed

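RNA was sequenced from FAK-WT-expressing, FAK-/- and FAK-kd-expressing SCC cells, with 3 libraries each (TruSeq v2, paired-end). The authors estimated transcript abundance with kallisto 0.43.1, as the submitters' processing notes give it, and brought it to gene level through tximport. What they deposited are estimated counts of 19044 genes, in whole numbers and before any scaling for depth, without genes at 0 throughout. The build named is GRCm38. No 2 libraries held identical counts.

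Groups came from the sample titles. Symbols, positions and transcript lengths were taken from GENCODE for GRCm38 (18856 of 19044 identifiers matched), and promoters from RefSeq (GRCm38.p6). Matches of 31-base words measured sequence shared between genes. All libraries entered 1 fit with edgeR 4.0.16 in R 4.3.3 (TMM, estimateDisp, glmQLFit, glmQLFTest, no filter) with the line as the only factor and Benjamini-Hochberg adjustment over all genes. CPM were also compared with exact permutation tests. TPM are counts per length, scaled to the same total over genes with a length. The edgeR fit was tested on simulated counts with changes larger than 2-fold, scored by the 2-fold criterion. Smaller changes, genes with low counts and a library that follows GC content were not covered by it. The members and gene lists were chosen with earlier results of these data known. Named from each list were, per comparison and direction, up to 2 genes, those that changed most among genes passing an adjusted p of 0.05 and a 2-fold change with a mean count of at least 100, and the 3 genes most alike to *Jun*. Alternatives were DESeq2 1.42.0, other scalings and filters, fits of 2 groups, a replicate block and leaving out each library. A GC correction (lowess) and leaving out 2 libraries together were added after the data were seen.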

Additional observations from a re-analysis of the deposited data

How the results depend on the processing

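Of the fold changes of members under the alternatives, 475 kept their direction and side of the threshold, 27 newly passed, 11 no longer passed and 18 turned sign, all of the latter with adjusted p of at least 0.212. *Jun*, *Jund*, *Fosb* and *Fosl2* for FAK-WT over FAK-/- cells passed with DESeq2 as well. The 18 fell on genes that did not pass. Leaving out each library in turn, the change of FAK-WT over FAK-/- cells ranged from -0.25 to 0.093 for *Junb*, from -0.91 to 0.21 for *Fos* and from -0.029 to 0.13 for *Atf2*. That of FAK-WT over FAK-kd cells ranged from -0.31 to 0.81 for *Fos* and from -0.27 to 0.11 for *Fosb*, and that of FAK-kd over FAK-/- cells from -0.13 to 0.096 for *Fosl1* and from -0.087 to 0.25 for *Atf3*. With the GC correction, and then without FAK-WT replicate 1 and FAK-/- replicate 3 together, *Junb* was at 0.13 and 0.10 and *Atf2* at -0.053 and -0.031 for FAK-WT over FAK-/- cells, and *Fosl1* was at 0.14 and 0.096 for FAK-kd over FAK-/- cells. *Fos* was at 0.056 for FAK-WT over FAK-/- cells without both libraries, and *Fosb* for FAK-WT over FAK-kd cells was at -0.077 with DESeq2 and -0.028 with the replicate block.

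Members passing for FAK-WT over FAK-kd cells numbered 1, against 4 when only the 2 groups were fitted, 2 with the replicate block, 4 with the GC correction and 5 without both libraries. Other bZIP factors passing for FAK-kd over FAK-/- cells numbered 7, against 4 with DESeq2, 4 with only the 2 groups and 4 with the block. Kinases and regulators passing for FAK-WT over FAK-kd cells numbered 7, against 11 with only the 2 groups, 13 with the GC correction and 12 without both libraries. Immediate-early genes numbered 11, 10 and 3 in the 3 comparisons, against 7, 6 and 0 with at least 10 counts in every library, where fewer genes were tested. The first of these was 7 with only the 2 groups, and the third was 6 with the GC correction and 5 without both libraries. Targets numbered 23, 17 and 7, against 14 and 9 for the first pair of comparisons with at least 10 counts in every library, and 14 with the GC correction and 13 without both libraries for the third. Beyond the tested genes, the cause was not tested. The Jun share was 50.9%, 55.8% and 52.0% with the longest transcripts and 54.1%, 59.2% and 55.2% with the union of exons.

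Leaving out each library in turn gave 0 to 1 members past the 2-fold criterion for FAK-WT over FAK-/- cells (*Fosb*, without FAK-WT replicate 2) and 0 in the other comparisons. In the order FAK-WT over FAK-/-, FAK-WT over FAK-kd and FAK-kd over FAK-/-, it gave 2 to 5, 1 to 4 and 1 to 4 members by adjusted p, 2 to 7, 5 to 15 and 1 to 10 other bZIP factors, 7 to 14, 5 to 11 and 1 to 6 kinases and regulators, 6 to 11, 6 to 15 and 1 to 5 immediate-early genes, and 15 to 23, 14 to 21 and 3 to 13 targets. The Jun share ranged over 40.2% to 41.2% in FAK-WT, 44.4% to 46.4% in FAK-/- and 40.4% to 43.4% in FAK-kd cells.

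Libraries with the same replicate number did not deviate together on average (mean correlation -0.00806 over 9 pairs, against 0.00398 over 18 pairs with different numbers). Deviations were taken from the mean of each line, which ties these averages to each other. The pairs with different numbers are therefore no independent reference, and a pairing of the replicates is not excluded. With the replicate block, *Jun* passed for FAK-kd over FAK-/- cells (edgeR adjusted p = 0.0491) and *Fosl2* did not (adjusted p = 0.0635). Depth limited *Fos*, *Fosb* and *Atf3*, which had under 10 counts in FAK-WT replicate 1.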
